A study of Mus musculus with 16 samples.

Results

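The replication and mitosis genes described here are 42 genes that dividing cells switch on for DNA replication and for mitosis. They were chosen by gene symbol: 19 act in S phase and 23 in G2 and M phase. All 42 had a row in the count table, out of 24539 genes in all, of which 18733 had a count in at least 1 library. A filter on low counts kept 13224 genes for testing, among them 40 of the 42: 17 S phase members and all 23 G2 and M phase members. Cdc6 and Gins2 did not pass it and are given by level alone.

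RNA was sequenced from GFP-positive cells cut out by laser in the cortical plate of mouse embryos at embryonic day 14.5, and gave 16 libraries in 4 groups of 4. In the cypermethrin stressed group the CD1 dams received alpha-cypermethrin, a pyrethroid insecticide, at 10 mg/kg by oral gavage on gestational days 11 to 14, and were restrained under bright light. Restraint was given in 3 sessions of 45 min on days 12 and 13, with a last round on day 14 that ended 15 min before euthanasia. The cypermethrin non-stressed dams received the insecticide without restraint, the vehicle stressed dams corn oil with restraint, and the vehicle non-stressed dams corn oil without restraint. All groups had their last gavage 90 min before euthanasia, and all embryos were GAD67-GFP+/- on the CD1 strain, a reporter that marks cells making the GABA-synthesis enzyme GAD67. Each library came from 1 embryo of a litter, labelled male, and from about 1000 cells at the leading edge of migration, taken from 10 paraformaldehyde-fixed sections. Litters were the replicates. In such bulk samples, fewer cells of a type and less RNA per cell cannot be told apart.

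A cell copies its genome in S phase, after the MCM helicase has been loaded at origins by Cdc6 and Cdt1 and fired by the kinase pair Cdc7 and Dbf4. In G2 and M phase, cyclin B with Cdk1 drives condensation, spindle assembly and segregation, and the anaphase-promoting complex ends mitosis by destroying cyclins. Cortical interneurons are born in the ventral telencephalon, where their progenitors divide, and migrate into the cortex mostly as postmitotic cells. Transcription of these genes is periodic: E2F factors act on many S phase promoters, and the DREAM complex, B-Myb and FoxM1 act on many G2 and M phase promoters through the cell cycle genes homology region (CHR), often beside CCAAT boxes bound by NF-Y.

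A single library did not match its label, and this bears on several values below. In vehicle stressed replicate 1, Xist, the RNA of the inactive X chromosome, had 4528 CPM (counts over the scaled library size, times 1000000), against at most 8.14 CPM in the other 15 libraries. The 4 Y-linked genes Ddx3y, Eif2s3y, Kdm5d and Uty summed to 0.476 CPM in it and to between 197.7 and 388.6 CPM in the others. Total counts ran from 2291283 to 4324129 per library, and the members held 0.110% of all counts, between 2246 and 6161 counts in a library. The labels call the cells neural progenitors. Of 16 markers of radial glia and progenitors, Gsx2 had no count in any library, and Hes5, Hopx, Neurog1, Olig2 and Nkx2-1 averaged under 1 CPM. Nes averaged 393.2 ± 114.7 CPM and Vim 245.6 ± 74.6 CPM (SD, n = 16). The 18 markers of migrating interneurons were all detected and summed to 7207 ± 675 CPM. That list includes the general neuronal genes Dcx, Tubb3 and Stmn2, so its sum does not measure interneurons alone. Dcx by itself averaged 3916 ± 509.2 CPM. Among its other genes, Lhx6 averaged 280.5, Gad2 271.0, Dlx1 82.4, Gad1 70.0, Dlx5 24.4, Dlx2 24.3 and Slc32a1 22.5 CPM. Markers of cortical glutamatergic neurons were high too, with Neurod6 at 1325 ± 317.4 CPM.

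The promoters of the members were searched for motifs already known from genes of these phases. A high share among the members is therefore no independent result. Windows from 250 bases before to 50 bases after the annotated start, 300 bases long, were taken from RefSeq on build GRCm38.p6: 38 windows covered 35 of the 42 members. Both strands were searched for the CHR as TTTGAA or TTCGAA, for the CCAAT box as CCAAT, and for E2F sites as TTTCCCGC, TTTCGCGC, TTTGCCGC or TTTGGCGC. Cdk1 and Mcm7 are shown because each had a window with all 3 kinds of motif, the only member windows that did. Blm and Dbf4 had the smallest p-values of any member in the comparisons below, and Ube2c was added after its motifs and values had been seen. Capitals mark every motif match, on either strand, and all are written 5′ to 3′ on the strand of the gene.
Cdk1: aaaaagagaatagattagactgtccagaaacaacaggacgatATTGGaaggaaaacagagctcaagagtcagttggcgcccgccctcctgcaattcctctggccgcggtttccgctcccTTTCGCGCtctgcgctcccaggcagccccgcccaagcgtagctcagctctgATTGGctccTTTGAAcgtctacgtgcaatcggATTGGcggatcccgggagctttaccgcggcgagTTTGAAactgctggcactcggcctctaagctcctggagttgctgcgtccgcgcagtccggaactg
Mcm7: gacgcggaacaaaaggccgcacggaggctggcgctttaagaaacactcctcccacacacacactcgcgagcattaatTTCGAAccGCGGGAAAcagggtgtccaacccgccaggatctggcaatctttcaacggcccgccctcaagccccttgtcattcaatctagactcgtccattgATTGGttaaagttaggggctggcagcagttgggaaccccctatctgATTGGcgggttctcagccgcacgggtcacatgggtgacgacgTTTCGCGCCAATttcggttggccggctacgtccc
Blm: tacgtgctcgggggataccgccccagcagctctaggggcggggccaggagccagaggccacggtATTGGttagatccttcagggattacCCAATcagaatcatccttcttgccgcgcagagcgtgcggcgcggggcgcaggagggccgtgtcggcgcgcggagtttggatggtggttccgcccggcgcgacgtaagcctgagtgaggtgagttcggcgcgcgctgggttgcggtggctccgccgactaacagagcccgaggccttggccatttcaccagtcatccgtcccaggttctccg
Dbf4: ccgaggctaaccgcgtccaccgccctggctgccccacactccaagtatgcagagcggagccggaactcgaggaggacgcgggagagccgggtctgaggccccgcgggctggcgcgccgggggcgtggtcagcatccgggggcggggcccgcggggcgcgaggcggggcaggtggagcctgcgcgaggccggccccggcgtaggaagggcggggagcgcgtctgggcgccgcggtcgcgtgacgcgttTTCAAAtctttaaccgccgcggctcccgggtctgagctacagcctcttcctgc
Ube2c: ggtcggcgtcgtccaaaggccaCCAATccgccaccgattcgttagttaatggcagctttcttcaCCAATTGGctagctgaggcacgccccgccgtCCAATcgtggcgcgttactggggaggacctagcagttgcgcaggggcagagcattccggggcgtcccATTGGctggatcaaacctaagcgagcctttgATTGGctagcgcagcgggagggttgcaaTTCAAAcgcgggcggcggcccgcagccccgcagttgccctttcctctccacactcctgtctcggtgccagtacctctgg
The Cdk1 window, chr10:69352863-69353162 on the minus strand, carried 2 CHR matches starting 71 and 15 bases before the start, 3 CCAAT boxes and 1 E2F site. In the Mcm7 window shown, chr5:138171834-138172133 on the minus strand, the second E2F site shares its last base with a CCAAT box. Another Mcm7 window, chr5:138171217-138171516, held 1 CCAAT box and no CHR or E2F match. The Blm window, chr7:80534949-80535248 on the minus strand, held 2 CCAAT boxes only, and the Dbf4 window, chr5:8422667-8422966 on the minus strand, held 1 CHR match, 3 bases before the start. The Ube2c window, chr2:164769679-164769978 on the plus strand, held 6 CCAAT boxes, of which a pair overlap on opposite strands, and 1 CHR match 29 bases before the start.

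The G2 and M phase members shared the CHR and the CCAAT box. Of their 20 windows, which cover 19 genes, 16 held a CHR match (80.0%) and 18 a CCAAT box (90.0%). Over all 32851 RefSeq windows the shares were 19.2% and 37.4%. Top2a, the topoisomerase that untangles sister chromatids, had 4 CHR matches and 6 CCAAT boxes. Only Cdk1 among the G2 and M phase windows held an E2F site (5.0%). Of the S phase members' 18 windows, which cover 16 genes, 6 held an E2F site (33.3%), against 2.26% of all windows, while 6 held a CHR match (33.3%) and 11 a CCAAT box (61.1%). Prc1 and Cdc7 each count overlapping windows that share a CHR match. The difference between both groups of members was not tested. Those 6 E2F windows belonged to Mcm3, Mcm5, Mcm6 and Mcm7, subunits of the helicase ring, and to the loading factors Cdc6 and Cdt1. No match of any kind was present in the windows of Birc5, Nusap1, Ccne1 and Tyms. Windows of Mcm4, Gins2, Ccne2, Ccna2, Aurkb, Tpx2 and Smc4 were not used here. A match describes the letters of the window and was not read as a bound site.

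Division genes were detected in every library, most of them at modest levels. Counts were scaled to CPM and, to compare genes with each other, divided by the length of all annotated exons in kb. The median tested member had 3.16 CPM per kb, against 6.16 CPM per kb for the median of all genes tested, and 12 of the 42 members lay above that median, 5 of them S phase and 7 G2 and M phase genes. The 6 highest were Smc4, Mki67, Pcna, Ube2c, Smc2 and Top2a. Smc4 and Smc2, the 2 ATPase arms of condensin, which compacts chromosomes, averaged 18.6 ± 10.3 and 10.7 ± 9.54 CPM per kb (SD, n = 16). Mki67, which coats mitotic chromosomes and whose protein is the usual mark of cycling cells, averaged 17.8 ± 4.93 CPM per kb. Pcna, the sliding clamp of the DNA polymerases, averaged 14.6 ± 5.62 CPM per kb, Ube2c, the ubiquitin-conjugating enzyme of the anaphase-promoting complex, 12.7 ± 6.98, and Top2a 10.2 ± 5.00. These neighbours overlapped within their spread. Smc4 stood at the 82.0 percentile of all genes tested and Top2a at the 65.4 percentile.

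The 6 lowest were Gins2, Cdc6, Ccne1, Cdt1, Mcm2 and Aurkb. Gins2, a subunit of the GINS part of the active helicase, averaged 0.466 ± 0.681 CPM per kb and had no count in 4 libraries. Cdc6 averaged 0.526 ± 1.00 CPM per kb with 3 libraries at 0, and Ccne1, the cyclin of the G1 to S transition, 0.767 ± 0.774 with 2 at 0. Cdt1 followed at 1.34 ± 1.24, Mcm2 at 1.58 ± 1.06 and the chromosomal passenger kinase Aurkb at 1.86 ± 1.60 CPM per kb. In all, 10 members had no count in at least 1 library, and none was at 0 in 8 or more. The order depends on the length used. Per kb of the longest principal transcript, Ube2c came to 34.2, Pcna to 23.04, Smc4 to 22.5, Mki67 to 17.8 and Top2a to 17.6 CPM per kb, while Cenpa and Birc5, at 3.68 and 4.09 CPM per kb of all exons, came to 14.7 each. At the low end, Cdk1 at 2.15 and Cdc20 at 2.37 CPM per kb of that transcript lay below Mcm2 at 3.27.

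**Figure D1:**
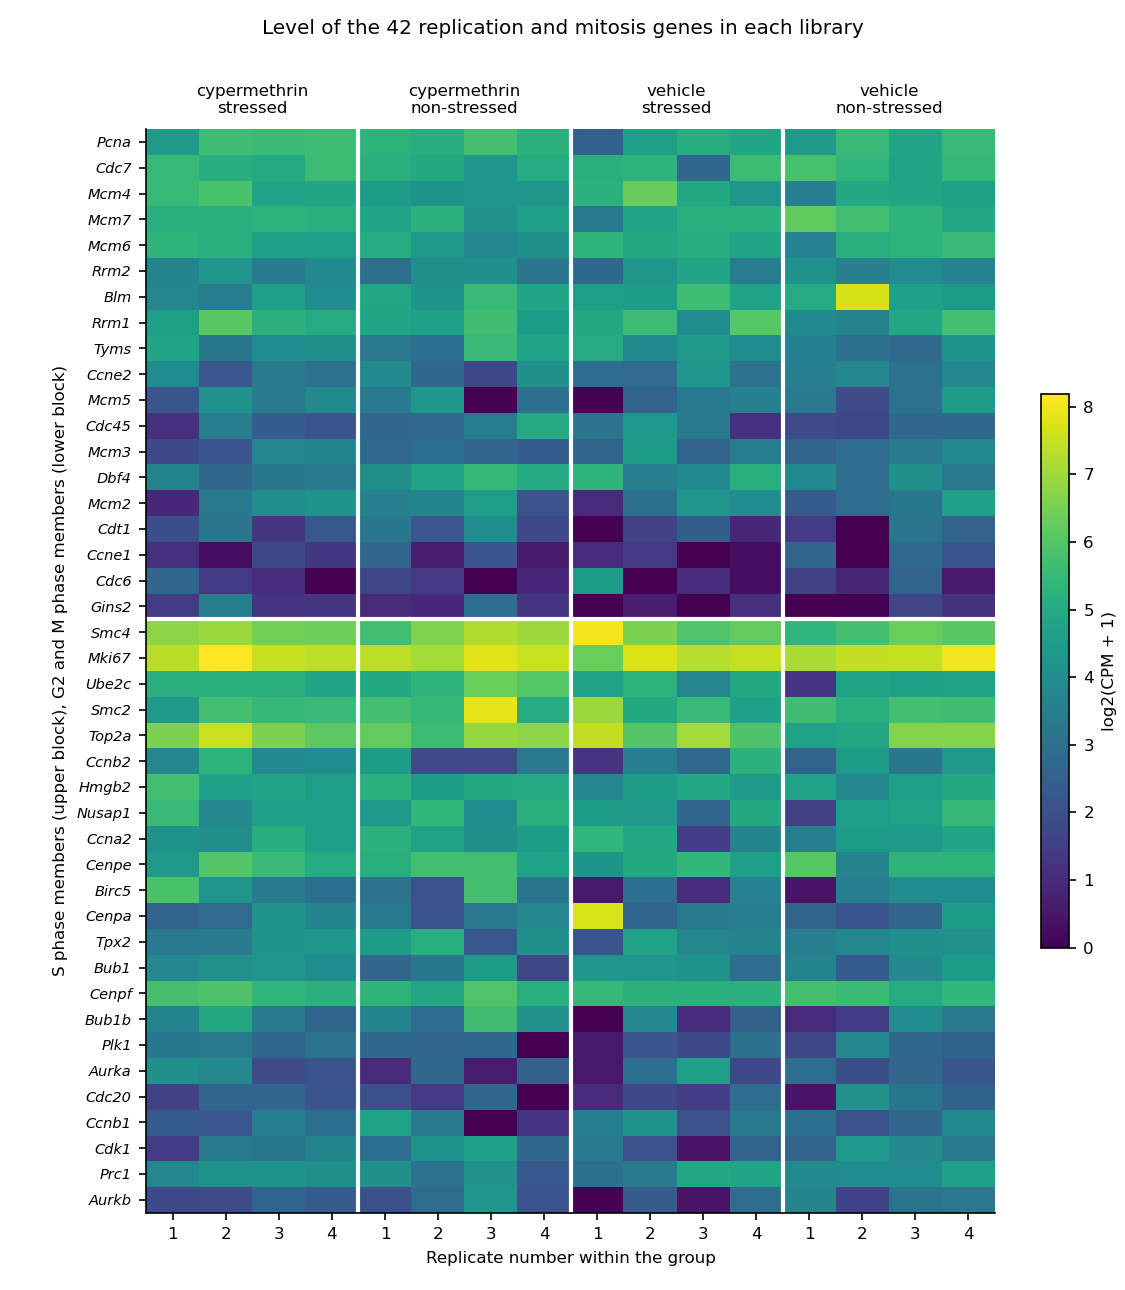
Level of each of the 42 members (rows, S phase above, G2 and M phase below, each ordered by mean level per kb) in each of the 16 libraries (columns, by group and replicate), as log2(CPM + 1) from dark (0) to bright. Mki67, Smc4 and Top2a are bright in nearly all columns, Ccne1, Cdc6 and Gins2 are dark in nearly all, and single bright cells mark Blm in vehicle non-stressed replicate 2 and Cenpa in vehicle stressed replicate 1.

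Subunits of the same complex stood at different levels. The MCM ring is built from Mcm2 to Mcm7. Mcm4 averaged 8.44 ± 4.66, Mcm7 7.74 ± 3.18 and Mcm6 6.18 ± 2.14 CPM per kb of exon (SD, n = 16), against 2.27 ± 1.60 for Mcm5, 2.17 ± 1.34 for Mcm3 and 1.58 ± 1.06 for Mcm2. The lowest of Mcm4, Mcm6 and Mcm7 exceeded the highest of Mcm2, Mcm3 and Mcm5 in 13 of 16 libraries, and the mean of the first 3 exceeded that of the other 3 in 16 of 16, with either gene length. Exons of Mcm7 overlap Cops6 and Ap4m1 on the opposite strand and hold the microRNAs Mir25 and Mir93, so its count may include their reads. Of the kinase that fires origins, the catalytic subunit Cdc7 averaged 8.45 ± 2.88 CPM per kb and its activator Dbf4 2.12 ± 1.42, with Cdc7 higher in 14 libraries (11 per kb of the principal transcript). Both subunits of ribonucleotide reductase, which makes deoxynucleotides, were present, Rrm2 at 4.88 ± 2.00 and Rrm1 at 3.11 ± 1.59 CPM per kb. Rrm2 was the higher in 12 libraries per kb of exon and in 4 per kb of the principal transcript, so their order was not settled. Tyms, which makes thymidylate, averaged 2.84 ± 1.80 and Cdc45, the third part of the active helicase, 2.23 ± 2.17 CPM per kb. The helicase Blm, which resolves recombination intermediates, averaged 4.17 ± 5.34 CPM per kb, with 207.8 CPM in a single library.

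Among cyclins, Ccna2, which serves S phase and G2, averaged 5.39 ± 2.49 CPM per kb and exceeded Ccne1 in 16 of 16 libraries and Ccne2 (2.80 ± 1.33) in 14. Of the mitotic cyclins, Ccnb2 (9.20 ± 7.37) exceeded Ccnb1 (1.94 ± 1.56) in 14 libraries, and their partner Cdk1 averaged 1.90 ± 1.35 CPM per kb. Ube2c exceeded Cdc20, the activator it works with at the anaphase-promoting complex (2.27 ± 2.19), in 16 of 16. The kinetochore motor Cenpe averaged 4.30 ± 1.78, the kinetochore protein Cenpf 2.77 ± 0.618, the checkpoint kinases Bub1 and Bub1b 3.04 ± 1.42 and 2.71 ± 2.98, and the mitotic kinases Plk1 and Aurka 2.47 ± 1.49 and 2.46 ± 2.51 CPM per kb. The spindle proteins Nusap1, Tpx2 and Prc1 averaged 5.97 ± 3.09, 3.22 ± 1.69 and 1.89 ± 0.843 CPM per kb. The chromatin protein Hmgb2 averaged 8.78 ± 3.06. Exons of 9 members overlap another gene (Mcm7, Cdc45, Gins2, Ccne2, Ccna2, Cdc20, Ube2c, Nusap1 and Prc1), and Pcna, Tyms, Ccnb1 and Ccnb2 have annotated pseudogenes. Whether counting used strand is not given in the sources used here, so reads of such pairs cannot be told apart.

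Variation between libraries was wide. Each library came from 1 embryo of a litter, so variation of litter, capture and library cannot be told apart. The biological coefficient of variation (BCV, the spread between replicates beyond counting error) had a median of 0.602 over the 40 tested members, 0.573 for the S phase and 0.619 for the G2 and M phase members, against 0.521 for all genes tested, and 27 of the 40 lay above that median. It was lowest for Mki67 (0.288), Cenpf (0.357) and Smc4 (0.384) and highest for Ccne1 (1.07), Cdt1 (0.994) and Cdc20 (0.9497), the members with few counts. The tested members also had lower levels, with a median of 16.4 CPM against 26.3 CPM for all genes tested. The part of level in the difference of BCV was not tested. Mki67 had 160, 291, 176 and 164 CPM in cypermethrin stressed libraries, 165, 133, 227 and 180 in cypermethrin non-stressed, 78.0, 213, 156 and 178 in vehicle stressed and 141, 173, 174 and 255 in vehicle non-stressed libraries. All 4 groups overlapped, and the low value of 78.0 belonged to the library that did not match its label. Cenpf kept between 28.4 and 60.6 CPM in all 16.

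**Figure D2:**
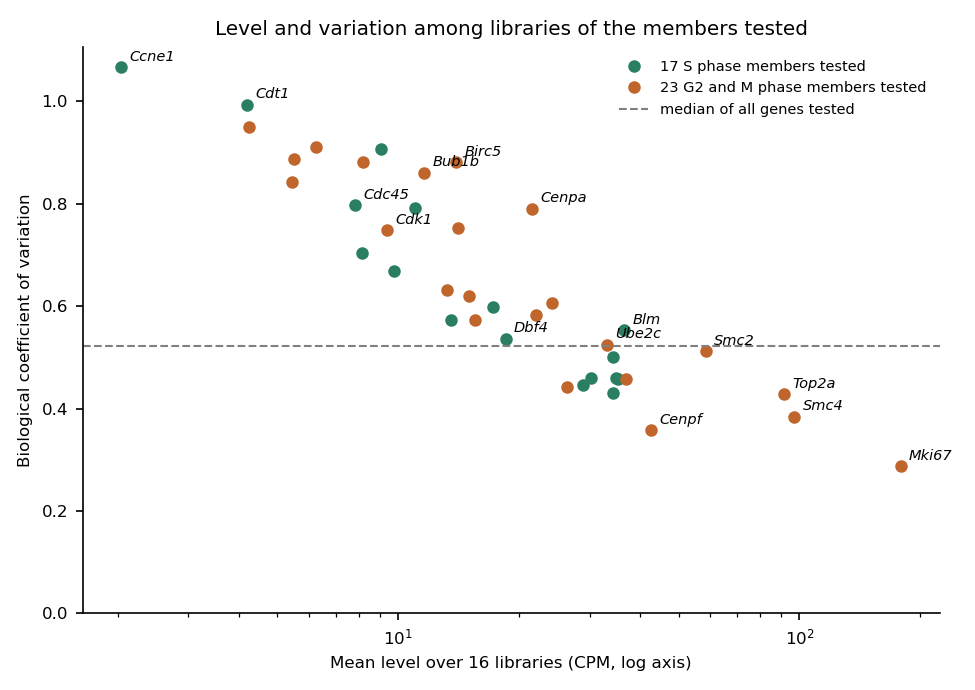
Mean level in CPM over 16 libraries (log axis) against the biological coefficient of variation of the 40 tested members, with the median of all genes tested (0.521) as a dashed line. Members with high levels such as Mki67 (0.288) vary least, and Ccne1 (1.07) and Cdt1 (0.994), with the lowest levels, vary most.

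Single libraries stood far above the others for some members. A total of 10 members had a library above 5 times their own median. Cenpa, the histone H3 variant that marks centromeres, reached 208.8 CPM in vehicle stressed replicate 1, or 23.7 times its median, and Cdc6 reached 21.4 CPM there, or 19.7 times. Blm reached 207.8 CPM in vehicle non-stressed replicate 2, or 8.55 times its median. The other 7 were Gins2, Birc5, Bub1b, Aurka, Cdc45, Cdc20 and Smc2. Cypermethrin non-stressed replicate 3 held the highest value of 11 members, and vehicle stressed replicate 1 the lowest value of 12 as well as the highest of 4. Across the 16 libraries, deviations from group means had a mean pairwise Pearson correlation of 0.00757 among S phase members, 0.0799 among G2 and M phase members and 0.0606 between them, against 0.00622 for all genes tested. These are descriptions over libraries that share depth and scaling. Summed over the 19 S phase members, libraries averaged 332 ± 34.0 CPM in cypermethrin stressed, 323 ± 44.4 in cypermethrin non-stressed, 339 ± 33.6 in vehicle stressed and 368 ± 84.6 in vehicle non-stressed embryos (SD, n = 4 each). The 23 G2 and M phase members summed to 800.2 ± 167.1, 814.1 ± 255.7, 756.2 ± 203.7 and 651.9 ± 159.5 CPM in the same 4 groups. All groups overlapped in both sums. The order of groups depends on the scale: for stress alone, the G2 and M phase members differed by 0.212 log2 units in the summed level and by -0.163 in the mean of log2(CPM + 1) over the members, and for cypermethrin alone the S phase members differed by -0.173 and by 0.043. Single genes weighed on them: the S phase sum of 480.2 CPM in vehicle non-stressed replicate 2 was 272.4 CPM without Blm, and the G2 and M phase sum of 1057 CPM in vehicle stressed replicate 1 was 583 CPM without Cenpa and Smc4.

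**Figure D3:**
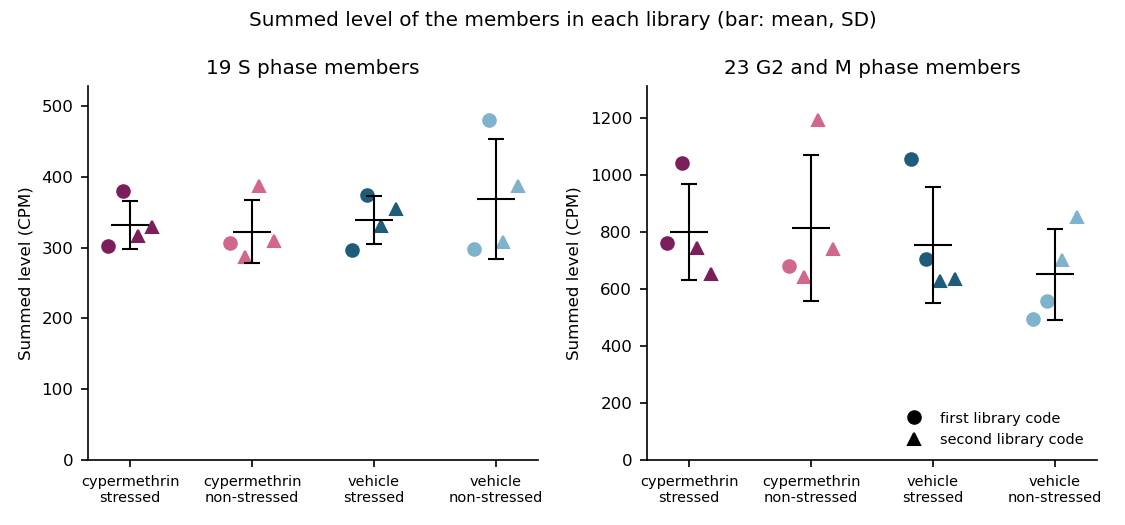
Summed CPM of the 19 S phase members (left) and the 23 G2 and M phase members (right) in each library, by group, with mean and SD (n = 4 each); circles and triangles are the 2 library codes in the labels. The groups overlap in both panels, with the highest S phase sum (480.2) in a vehicle non-stressed library and the highest G2 and M phase sum (1193) in a cypermethrin non-stressed library.

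In cypermethrin non-stressed replicate 3, the library with that G2 and M phase sum, markers of some other cell types were also high. All endothelial, microglia and macrophage, and pericyte and fibroblast markers were detected. Its 10 endothelial markers summed to 933.4 CPM, against at most 535.8 CPM in the other 15 libraries. Its 12 microglia and macrophage markers summed to 530.9 CPM, against at most 246.5 CPM. Its 12 pericyte and fibroblast markers summed to 4098 CPM, against at most 3694 CPM. Its glutamatergic markers, at 5463 CPM, and erythroid markers, at 108.4 CPM, were near or below their means of 5450 and 144.2 CPM. This library also held the highest values of Dbf4, Ube2c, Bub1b and Smc2, whose comparisons are given below. The part of these markers in the members' values was not tested. Without Smc2 its G2 and M phase sum was 958 CPM, still above the other 3 libraries of its group, which had 643 to 740 CPM before any gene was left out.

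No member passed the test in any comparison. Each comparison was read from one edgeR quasi-likelihood fit over all 13224 genes, and a gene was called at an adjusted p under 0.05. For the effects of cypermethrin alone (cypermethrin non-stressed over vehicle non-stressed), of stress alone (vehicle stressed over vehicle non-stressed), and of both together (cypermethrin stressed over vehicle non-stressed), 0 members were called, and the share of all genes called was 0% in each. The same held for cypermethrin under stress (cypermethrin stressed over vehicle stressed), stress under cypermethrin (cypermethrin stressed over cypermethrin non-stressed), the interaction (the cypermethrin difference in stressed minus that in non-stressed dams), and the 2 effects averaged over the other factor. These comparisons share libraries. DESeq2 and limma voom also called 0 members in all 8, and DESeq2 called 2 other genes in cypermethrin under stress and 1 in the averaged cypermethrin effect. The smallest adjusted p of a member was 0.902, in cypermethrin under stress. The fit's precision sets what it could show: the median standard error of a member was 0.632 log2 units between 2 groups, 0.445 for an averaged effect and 0.89 for the interaction.

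At an unadjusted p under 0.05 stood between 1 and 5 of the 40 tested members in each comparison. After cypermethrin alone, 3 of 40 members were at that level and higher and 1 was lower, with 3.71% of all genes at it in either direction. After stress alone, 2 were higher and 1 lower (5.08% of all genes). After both, 0 were higher and 1 lower (1.49%). For cypermethrin under stress, 1 was higher and 2 lower (5.39%), and for stress under cypermethrin, 1 was higher and 2 lower (4.31%). The interaction had 0 positive and 2 negative (4.70%), the averaged cypermethrin effect 3 higher and 2 lower (4.59%), and the averaged stress effect 2 higher and 1 lower (5.13%).

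Fitted differences lay on both sides of 0 in each comparison. For the averaged cypermethrin effect, 24 of 40 members were fitted higher, with a median log2 difference of 0.16 against 0.01 over all genes, and 16 of 23 G2 and M phase members were higher (median 0.24) against 8 of 17 S phase members (median -0.06). For the averaged stress effect 15 of 40 were fitted higher (median -0.10, against -0.001 over all genes). Cypermethrin under stress had 26 of 40 higher, 18 of 23 in G2 and M phase (median 0.32) and 8 of 17 in S phase (median -0.10), against 49.03% of all genes tested. Marker lists of cell types did not all lie to the same side. For cypermethrin under stress, 5 of 10 tested progenitor, 6 of 18 interneuron and 4 of 9 glutamatergic markers were fitted higher. Of microglia and macrophage markers 6 of 12 were, and of tested erythroid markers 1 of 4. For averaged cypermethrin these lists had, in order, 6 of 10, 8 of 18, 6 of 9, 7 of 12 and 2 of 4 higher. Their medians there were 0.14, -0.05, 0.05, 0.3 and -0.16. For that effect, most progenitor, glutamatergic, and microglia and macrophage markers thus lay to the members' side. Most pericyte and fibroblast markers and most endothelial markers did so in both comparisons. For cypermethrin under stress, 10 of 12 pericyte and fibroblast markers (median 0.35) and 8 of 10 endothelial markers (median 0.29) were fitted higher. For the averaged cypermethrin effect these were 11 of 12 (median 0.32) and 8 of 10 (median 0.31), against 51.05% of all genes. None of these markers was called, and their part in the members' differences was not tested. Cypermethrin alone had 21 of 40 higher, with medians of 0.23 in G2 and M phase and -0.22 in S phase. Leaving out cypermethrin non-stressed replicate 3 gave a median over all members of -0.21 for cypermethrin alone, against 0.08 with it. The averaged cypermethrin median of 0.16 came to 0.038 without cypermethrin stressed replicate 2 and to -0.023 within the second library code. For averaged stress the median of -0.10 came to 0.048 without vehicle non-stressed replicate 4, to 0.109 within the first library code, and also above 0 without cypermethrin non-stressed replicate 3. The counts for stress alone, both exposures and stress under cypermethrin were 18, 23 and 21 of 40. No test was made of these medians.

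**Figure D4:**
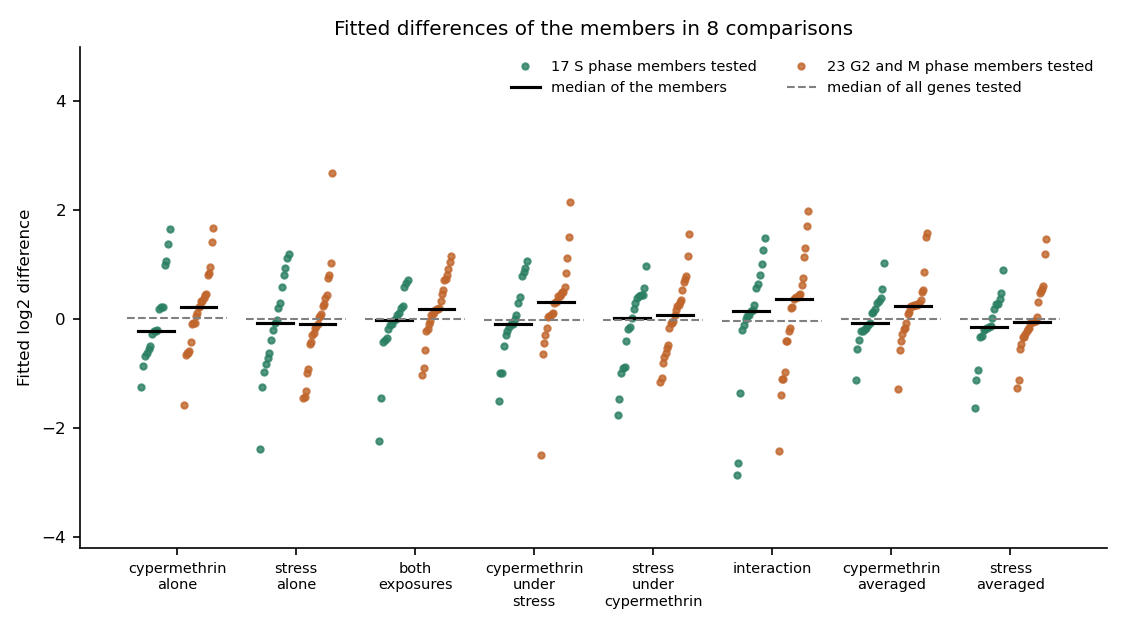
Fitted log2 difference of the 17 tested S phase members and the 23 tested G2 and M phase members in each of the 8 comparisons, with the median of the members (black) and of all genes tested (dashed). Members scatter on both sides of 0 in every comparison, and single points stand far out, such as Cenpa after stress alone (2.68) and Dbf4 in the interaction (-2.87).

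Among the 10 members that reached an unadjusted p under 0.05 in a comparison, the replication genes were Blm, Dbf4, Mcm4 and Cdc45. Overlap between the groups compared was looked at in every tested member. Only Dbf4, Mcm4, Ube2c and Smc4 had a compared pair of groups that did not overlap. The share of such pairs over all genes was not counted, so non-overlap is a description only. Dbf4, the activator of the origin-firing kinase, had 11.9, 5.77, 8.17 and 8.97 CPM in cypermethrin stressed libraries, 15.4, 28.1, 43.0 and 31.3 in cypermethrin non-stressed, 39.5, 10.3, 14.3 and 34.4 in vehicle stressed, and 13.8, 6.68, 16.4 and 8.49 in vehicle non-stressed libraries. The cypermethrin stressed libraries all lay below the cypermethrin non-stressed ones, and the other pairs of groups overlapped. The interaction was -2.87 ± 0.80 log2 units (SE, 95% interval -4.52 to -1.22, adjusted p = 0.985). Within it, cypermethrin alone gave 1.37 ± 0.57 (adjusted p = 0.999) and cypermethrin under stress -1.5 ± 0.57 (adjusted p = 0.902). Stress under cypermethrin gave -1.76 ± 0.57 (95% interval -2.94 to -0.58, adjusted p = 0.997). The interaction stayed between -3.13 and -2.56 when any 1 library was left out. It was -2.09 within the first library code, which has 1 cypermethrin non-stressed library, and -2.96 within the second. Without vehicle stressed replicate 1 and cypermethrin non-stressed replicate 3 together, chosen after seeing the data, it was -2.315. The library that did not match its label had the highest vehicle stressed value, and cypermethrin alone gave 1.14 without cypermethrin non-stressed replicate 3.

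Blm had 12.1, 10.2, 23.6 and 14.5 CPM in cypermethrin stressed libraries, 29.0, 17.9, 44.9 and 27.6 in cypermethrin non-stressed, 22.4, 22.2, 49.5 and 26.2 in vehicle stressed, and 31.7, 207.8, 25.0 and 20.9 in vehicle non-stressed libraries. The group with both exposures held the 3 lowest of the 16 values, and its highest value overlapped every other group. Both exposures gave -2.24 ± 0.59 log2 units (95% interval -3.45 to -1.02, adjusted p = 1). Vehicle non-stressed replicate 2 carried most of it: without that library the difference was -0.77, and it was -3.43 within the first library code, which holds that library, and -0.27 within the second. Cypermethrin alone and stress alone gave -1.25 ± 0.57 and -1.25 ± 0.57 (adjusted p = 0.999 and 0.965). Without the same library these differences turned to 0.21 and 0.22. The averaged effects were -1.12 ± 0.41 for cypermethrin (adjusted p = 0.981) and -1.11 ± 0.41 for stress (adjusted p = 0.96), and came to -0.39 and -0.38 without it.

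Mcm4, one of the helicase subunits, had 43.6, 55.8, 25.8 and 26.9 CPM in cypermethrin stressed libraries, against 21.9, 17.6, 19.1 and 18.2 CPM in cypermethrin non-stressed libraries. These 2 groups did not overlap. Vehicle stressed libraries had 37.1, 77.4, 30.3 and 18.4 CPM, overlapping the 10.8, 30.5, 27.3 and 23.9 CPM of vehicle non-stressed libraries. Stress under cypermethrin gave 0.98 ± 0.47 (adjusted p = 0.997), and the averaged stress effect 0.90 ± 0.33 log2 units (95% interval 0.22 to 1.58, adjusted p = 0.96). The averaged effect kept its sign without any 1 library, at 0.64 to 1.02, and was 1.32 within the first library code and 0.22 within the second. Cdc45 had 1.16, 9.92, 4.195 and 3.49 CPM in cypermethrin stressed libraries, 5.55, 6.17, 9.83 and 30.8 in cypermethrin non-stressed, 7.61, 19.4, 9.26 and 1.18 in vehicle stressed, and 2.69, 2.40, 5.55 and 5.66 in vehicle non-stressed libraries. The cypermethrin non-stressed library with 30.8 CPM was the highest, and the groups overlapped. Its interaction was -2.65 ± 1.27 (95% interval -5.25 to -0.04, adjusted p = 0.985), and -1.81 without cypermethrin non-stressed replicate 4.

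**Figure D5:**
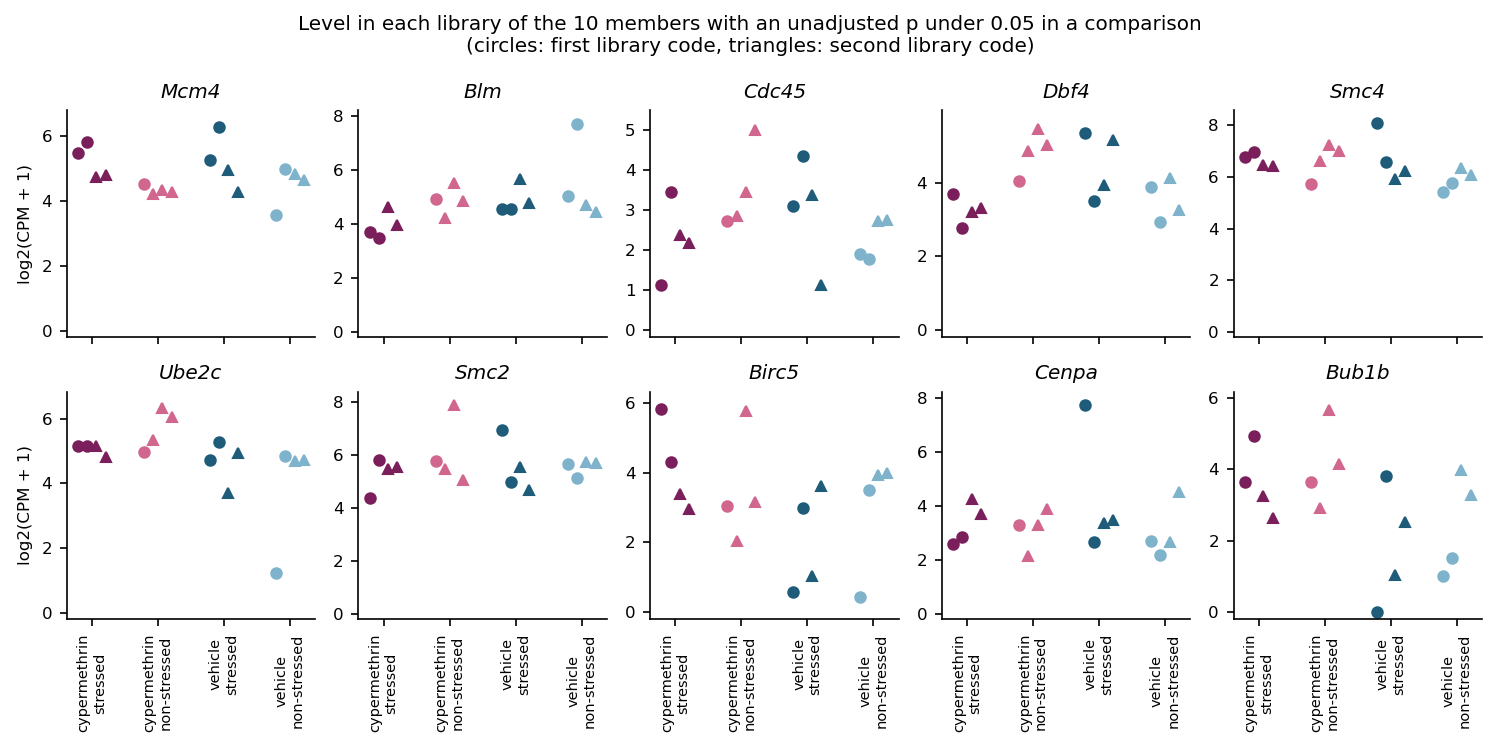
Level, as log2(CPM + 1), in each library of the 10 members with an unadjusted p under 0.05 in at least 1 comparison, by group; circles and triangles are the 2 library codes in the labels. Dbf4 lies lower in all 4 cypermethrin stressed libraries (5.77 to 11.9 CPM) than in the cypermethrin non-stressed ones (15.4 to 43.0 CPM), while single libraries stand out for Blm (207.8 CPM) and Cenpa (208.8 CPM).

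Of the mitotic genes, Ube2c had 34.7, 34.8, 34.2 and 27.2 CPM in cypermethrin stressed libraries and 25.2, 37.9, 12.1 and 29.7 in vehicle stressed libraries. In cypermethrin non-stressed libraries it had 30.3, 39.2, 79.4 and 64.9 CPM, against 1.35, 27.8, 25.0 and 25.5 CPM in vehicle non-stressed libraries. The last pair did not overlap. Cypermethrin alone gave 1.42 ± 0.55 log2 units (95% interval 0.28 to 2.56, adjusted p = 0.999) and the averaged cypermethrin effect 0.87 ± 0.39 (adjusted p = 0.981). The first was 1.04 without vehicle non-stressed replicate 1, whose value of 1.35 CPM was the lowest of all, and 1.05 and 1.28 within the first and second library codes. Exons of Ube2c overlap Tnnc2 on the other strand.

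Bub1b and Birc5 had positive averaged cypermethrin effects that did not pass the test, on uneven values. Bub1b had 11.6, 29.5, 8.61 and 5.23 CPM in cypermethrin stressed and 11.6, 6.48, 50.2 and 16.8 in cypermethrin non-stressed libraries, against 0, 13.2, 1.07 and 4.71 in vehicle stressed and 1.01, 1.87, 14.9 and 8.75 in vehicle non-stressed libraries. The 8 cypermethrin libraries overlapped the 8 vehicle libraries, and 5 of the vehicle libraries were below every cypermethrin library. Its averaged effect was 1.59 ± 0.68 log2 units (95% interval 0.20 to 2.98, adjusted p = 0.981), and 1.15 to 2.20 with 1 library left out. Birc5, the survivin subunit of the chromosomal passenger complex, had 55.8, 18.7, 9.49 and 6.73 CPM in cypermethrin stressed and 7.32, 3.08, 53.9 and 7.94 in cypermethrin non-stressed libraries, against 0.476, 6.89, 1.07 and 11.3 in vehicle stressed and 0.337, 10.4, 14.4 and 14.9 in vehicle non-stressed libraries. A single library led each cypermethrin group. Its averaged effect was 1.5 ± 0.68 (adjusted p = 0.981), and 0.72 without cypermethrin non-stressed replicate 3. Under stress, cypermethrin gave 2.15 ± 0.99 for Birc5 (adjusted p = 0.902), which was 1.20 without cypermethrin stressed replicate 1.

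Each of the remaining 3 had a comparison that rested on a single library. Cenpa had 4.91, 6.23, 17.9 and 12.0 CPM in cypermethrin stressed libraries, 8.83, 3.39, 8.77 and 13.6 in cypermethrin non-stressed, 208.8, 5.32, 9.26 and 10.1 in vehicle stressed, and 5.39, 3.47, 5.30 and 21.9 in vehicle non-stressed libraries. The value of 208.8 CPM, from 439 counts, came from the library that did not match its label, and the other 15 lay between 3.39 and 21.9 CPM. Stress alone gave 2.68 ± 0.89 log2 units (adjusted p = 0.965), and -0.13 without that library. Cypermethrin under stress gave -2.49 ± 0.88 (adjusted p = 0.902), and 0.31 without it. The averaged effects, -1.28 ± 0.61 for cypermethrin (adjusted p = 0.981) and 1.47 ± 0.61 for stress (adjusted p = 0.96), came to 0.12 and 0.06 without it.

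For the condensin arm Smc4, cypermethrin stressed libraries had 108, 122, 85.9 and 83.0 CPM, cypermethrin non-stressed 51.5, 96.8, 148 and 125, vehicle stressed 265, 94.3, 59.5 and 73.3, and vehicle non-stressed 41.1, 53.2, 79.5 and 66.7 CPM. The doubly exposed libraries all lay above the vehicle non-stressed ones, while the difference of 0.73 ± 0.38 did not reach an unadjusted p of 0.05 (adjusted p = 1). Cypermethrin alone gave 0.81 ± 0.38 (adjusted p = 0.999) and stress alone 1.03 ± 0.39 (adjusted p = 0.965). The stress value was 0.33 without vehicle stressed replicate 1. For cypermethrin alone, Smc4 came to 0.60 without cypermethrin non-stressed replicate 3. Within the first library code, with 1 cypermethrin non-stressed library, Smc4 stood at 0.13 for cypermethrin alone, and within the second at 0.76. Its partner Smc2 had 19.9, 54.2, 43.1 and 46.1 CPM in cypermethrin stressed libraries, against 53.7, 42.9, 234.9 and 31.8 CPM in cypermethrin non-stressed libraries. These overlapped, and stress under cypermethrin gave -1.15 ± 0.53 (adjusted p = 0.997), or -0.08 without cypermethrin non-stressed replicate 3. In the vehicle groups Smc2 had 122, 30.4, 45.9 and 24.5 CPM in stressed and 49.8, 33.9, 52.2 and 50.7 CPM in non-stressed libraries, which overlapped.

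None of the other listed genes of these processes passed the test. Of 56 further replication genes, 52 were tested and 0 were called in any comparison. For the averaged cypermethrin effect 30 of the 52 were fitted higher (median log2 difference 0.10), with 0 at an unadjusted p under 0.05, and for the averaged stress effect 25 were (median -0.06), with 1 at that level, lower. That gene was Mcm10, which helps activate the helicase (-3.27 ± 1.30, adjusted p = 0.96), with no count in 7 libraries. The highest of this list per kb were Orc3, an origin recognition subunit (56.2 CPM per kb), and Rpa3, of the single-strand binding protein RPA (28.9 CPM per kb).

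Of 87 further mitosis genes, 83 had a row and 80 were tested, and 0 were called. For the averaged cypermethrin effect 47 of 80 were fitted higher (median 0.08), with 2 higher and 1 lower at an unadjusted p under 0.05. For the averaged stress effect 35 were higher (median -0.09), with 3 higher and 4 lower at that level. The smallest p-values were those of Cks2, a subunit of cyclin-dependent kinases (-1.96 ± 0.70), and of the kinetochore genes Zwint (-0.47 ± 0.18) and Zwilch (-1.68 ± 0.65), all for the averaged stress effect and at an adjusted p of 0.96. Zwint, at 37.6 CPM per kb, stood above every member. Arhgap11a had 73.6 CPM per kb and the cohesin subunit Smc1a 38.6.

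Of 30 regulators of the cell cycle programme, 28 were tested and 0 were called. E2f7, a repressor of E2F targets, stood at -1.12 ± 0.38 log2 units for the averaged cypermethrin effect (adjusted p = 0.981), the 1 gene of the list at an unadjusted p under 0.05 there, while 16 of the 28 were fitted higher. For the averaged stress effect 10 were higher and 0 reached that level. Myc stood at -0.49 ± 0.28 for stress (adjusted p = 0.96) and Rbl2, of the DREAM complex, at -0.68 ± 0.40 for cypermethrin (adjusted p = 0.981). The highest per kb were Cdkn1c, an inhibitor of cyclin-dependent kinases that is known from cells leaving the cycle (62.6 CPM per kb), and the retinoblastoma gene Rb1 (41.0 CPM per kb). Both stood above every one of the 42 members. The progenitor markers summed to 763 ± 42.8 CPM in cypermethrin stressed, 795 ± 61.0 in cypermethrin non-stressed, 919 ± 78.8 in vehicle stressed and 714 ± 70.0 in vehicle non-stressed libraries (SD, n = 4 each), with 10 of the 16 markers tested and 0 called. Nes made up 393.2 CPM of the mean sum of 797.9 CPM. For stress alone, 5 of the 10 tested markers were fitted higher and 5 lower (median log2 difference -0.03). At an unadjusted p under 0.05 stood 2 of the 10, both higher, against 5.08% of all genes in either direction. The 4 vehicle stressed sums, 856 to 1034 CPM, lay above the 640 to 782 CPM of the vehicle non-stressed libraries, while the members' sums in these groups overlapped.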

How the data were processed

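Per the labels' protocols, RNA was isolated from fixed laser-captured cells with the RecoverAll kit and made into libraries with the Trio RNAseq kit. The authors deposited whole-number read counts per gene, and the submitters' processing notes name STAR 2.5 and mm10. Which tool counted reads, and whether it used strand, is not given in the sources used here. All 16 columns belong to labelled samples. Counts were scaled by TMM in edgeR 4.0.16 (R 4.3.3). After filterByExpr with a minimum of 10, 13224 genes were fitted with 1 mean per group, over all 16 libraries, by the quasi-likelihood test with Benjamini-Hochberg adjustment. Standard errors are the log2 difference over the square root of F. CPM are counts over the TMM-scaled library size, times 1000000. Exon lengths and overlaps come from GENCODE vM21. Alternatives were DESeq2 1.42.0, limma 3.58.1 voom, other filters and scalings, each library left out, and the 2 codes in the sample descriptions, whose meaning is not stated. No 2 of the 16 libraries agreed within sampling noise, the lowest chi-square per gene over 120 pairs being 5.98. Replicate numbers follow accession order.

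Named are the members with an unadjusted p under 0.05 in a comparison, the 6 highest and 6 lowest per kb, those with a library standing apart, and up to 3 genes by p and 2 by level of each other list. The members and lists were chosen with earlier results of these data known. A gene that this rule names in the list of further replication genes is not reported here.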

Additional observations from a re-analysis of the deposited data

Results flagged for a closer look

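Each member's 4 libraries of a group were examined for a value far from the other 3, by Dixon's criterion (gap to the nearest over the whole range). Of 168 groups of 4, 24 held such a value, 18 of them the highest of the group. The criterion's rate of about 1 in 20 by chance holds for normally distributed values. It was applied to CPM, and many members had few counts and uneven values. The chance rate is therefore not known here, and the number of flags is a description only. Vehicle stressed replicate 1, which did not match its label, held 4 of them: Cenpa at 208.8 CPM (others at most 10.1), Smc4 at 265.4 CPM (others at most 94.3), Cdc6 at 21.4 CPM (others at most 1.07) and Cenpf at 42.8 CPM (others 37.3 to 37.8). In cypermethrin non-stressed replicate 3, Smc2 stood at 234.9 CPM (others at most 53.7), Birc5 at 53.9 CPM (others at most 7.94) and Gins2 at 6.91 CPM (others at most 1.40). In cypermethrin stressed replicate 2, Mki67 stood at 290.6 CPM (others at most 175.8), Ccnb2 at 38.1 CPM (others at most 14.5) and Gins2 at 10.4 CPM (others at most 1.73).

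Of the other cypermethrin libraries, stressed replicate 1 was high in Hmgb2 (51.4 CPM) and low in Pcna (20.5 CPM), stressed replicate 3 was high in Mcm7 (38.6 CPM) and stressed replicate 4 low in Ube2c (27.2 CPM). Non-stressed replicate 4 was high in Cdc45 (30.8 CPM) and had no count of Plk1 (0 CPM, others 5.55 to 5.85). Of the vehicle libraries, stressed replicate 3 was high in Blm (49.5 CPM) and Ccne2 (18.2 CPM), and stressed replicate 4 low in Bub1 (6.60 CPM). Non-stressed replicate 1 was low in Ube2c (1.35 CPM, others at least 25.0), and non-stressed replicate 2 was high in Blm (207.8 CPM, others at most 31.7) and low in Smc2 (33.9 CPM). Non-stressed replicate 4 was high in Cenpa (21.9 CPM, others at most 5.39) and Prc1 (24.7 CPM, others at most 15.0).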

How the results depend on the processing

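The first library code held vehicle stressed replicates 1 and 2, of which replicate 1 did not match its label and had 208.8 CPM of Cenpa. Counts of called genes moved chiefly within this code, a fit of 7 libraries with 1 cypermethrin non-stressed library, which is assumed to vary like the others. Of 14404 genes tested there, it called 2 for cypermethrin alone, 45 for stress alone, 13 for both exposures, 57 for cypermethrin under stress, 3 for stress under cypermethrin, 9 for the interaction, 14 for averaged cypermethrin and 7 for averaged stress. These included 1 member for stress alone (Cenpa), 2 for both exposures (Blm and Top2a) and 1 for cypermethrin under stress (Cenpa). The second code called 0 genes in each. DESeq2 called 2 genes for cypermethrin under stress and 1 for averaged cypermethrin. With 1 library left out, each of these 2 counts was 0 to 1 (1 without vehicle stressed replicate 3). Within the second code, 6 log2 differences turned their sign: Blm to 0.40 for cypermethrin alone, to 0.72 for stress alone and to 0.029 for averaged stress, Cenpa to -0.48 for stress alone and to 0.62 for cypermethrin under stress, and Smc4 to -0.14 for stress alone. With 1 library left out, the ranges that crossed 0 were -1.56 to 0.21 for Blm after cypermethrin alone, -1.59 to 0.22 for Blm after stress alone, -0.13 to 3.61 for Cenpa after stress alone, -2.91 to 0.31 for Cenpa in cypermethrin under stress and -1.49 to 0.12 for Cenpa in averaged cypermethrin. With vehicle stressed replicate 1 and cypermethrin non-stressed replicate 3 both left out, chosen after seeing the data, the 3 Cenpa values were -0.13, 0.31 and 0.12. The cause was not tested. In all, 395 of 410 counts of calls stayed at 0. Less than the replicate spread was the move of 202 of 205 medians and of 162 of 165 differences in summed level. That rule lets a sign turn: the median for cypermethrin alone, 0.083, counted as kept at -0.186 within the second code. Of values of named members, 597 of 614 kept their sign and side of the threshold, whatever their size. Smc2 in stress under cypermethrin, at -1.155, counted as kept at -0.076 without cypermethrin non-stressed replicate 3. These tallies therefore say little about how stable the values were. The 3 summed levels that moved did so as a mean of log2(CPM + 1) over the members: -0.163, against 0.212, for G2 and M phase after stress alone, 0.463, against 0.094, for G2 and M phase in cypermethrin under stress, and 0.043, against -0.173, for S phase after cypermethrin alone. With the longest principal transcript as the gene length, also chosen after seeing the data, 13 of 42 levels per kb moved beyond the spread between libraries. No paired analysis was possible because replicate numbers were given in accession order. The common BCV was 0.586 with 4 litters a group, and the median standard error of a member was 0.632 log2 units.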
